A study of Homo sapiens with 6 samples.

Results

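Open chromatin around MYC and PVT1 was described from ATAC-seq peak lists, over the hg19 interval 127900000 to 129300000 of chromosome 8. All peaks inside that interval were taken, and overlapping peaks of different libraries were joined into sites. This gave 292 sites, out of 248031 over chromosomes 1 to 22 and X. The interval was divided at the limits of MYC (128748315 to 128753680) and PVT1 (128806779 to 129113499). A promoter zone reached 2 kb to either side of a gene's start, and the 846 kb from the start of the interval to the MYC promoter zone are called the upstream desert.

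ATAC-seq marks accessible DNA by inserting sequencing adapters with a transposase. The cells were U2OS, an established human osteosarcoma line, either with a knockout of CRAMP1 (CRAMP1-KO, 3 libraries) or wild type (WT, 3 libraries), grown in the same medium and with no treatment named. The design asks how accessibility differs without CRAMP1, a gene known for its part in the expression of linker histone H1. The labels say neither whether the CRAMP1-KO cells were 1 clone nor whether the libraries of a genotype came from separate cultures, so a p-value here reflects only how much these libraries vary, and that variation may be technical.

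MYC encodes a transcription factor of cell growth and division that binds DNA together with MAX. PVT1, its neighbour on the telomeric side, is a long non-coding RNA gene whose promoter and introns are known to hold regulatory elements of the locus. The gene-poor DNA upstream of MYC is known in several tissues for enhancers that act on MYC over long distances, and it carries many variants associated with cancer risk.

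Each CRAMP1-KO list had 133756, 139242 and 157997 peaks in replicates 1 to 3, and each WT list had 198875, 151646 and 132686. Total reads are not in the lists, so depth is unknown as a count. A relative depth index, the lowest background of a library divided by its lowest peak width, was 0.905, 0.884 and 1.12 in CRAMP1-KO and 1.75, 1.10 and 0.802 in WT. WT replicate 1 thus stood apart, with the longest list and the lowest median fold enrichment, 4.25. The other 5 libraries had 5.96 to 6.26.

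The interval held many sites called in all 6 libraries, unevenly placed, though they were a smaller share of its sites than over all sites. Of the 292 sites, 90 (30.8%) were called in all 6 libraries, compared with 37.3% of all sites. These 90 shared sites were more than in 89.9% of 2059 tiles of 1.4 Mb laid over the genome, where the median was 38. Per 100 kb there were 10.8 shared sites in the PVT1 body, 10.7 downstream of PVT1 and 3.43 in the upstream desert. In the desert 150 sites were found, of which 29 were shared and 66 were called in a single library. Over the whole interval 99 sites (33.9%) were called in a single library, compared with 30.7% of all sites. The longest stretch without a shared site lay in the desert, over 138 kb from 128352693 to 128490765. It was not empty, as 26 sites with a peak in some of the libraries lay there, 15 of them in 1 library. The body of MYC outside the promoter zone held no site.

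The height of the shared sites also changed along the interval. Height is given here as the summit pileup, the number of stacked reads at a peak's highest point, solved from the deposited fold enrichment and −log10 p. Scaled pileups are those values divided so that every library has the same median over all 92505 sites called in all libraries. The highest sites lay in or just past PVT1 and at the MYC promoter. The highest lay 7.56 kb past the end of PVT1, at 129121063 to 129121960, with scaled pileups of 857, 876 and 639 in CRAMP1-KO and 677, 786 and 916 in WT. Its raw pileup exceeded that of at least 99.9% of the peaks of every list. The next, at 128863523 to 128864731 in the PVT1 body, had 829, 808 and 641 in CRAMP1-KO and 634, 801 and 789 in WT. The genotypes overlapped at both sites. Both were singled out after their values were seen.

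**Figure D1:**
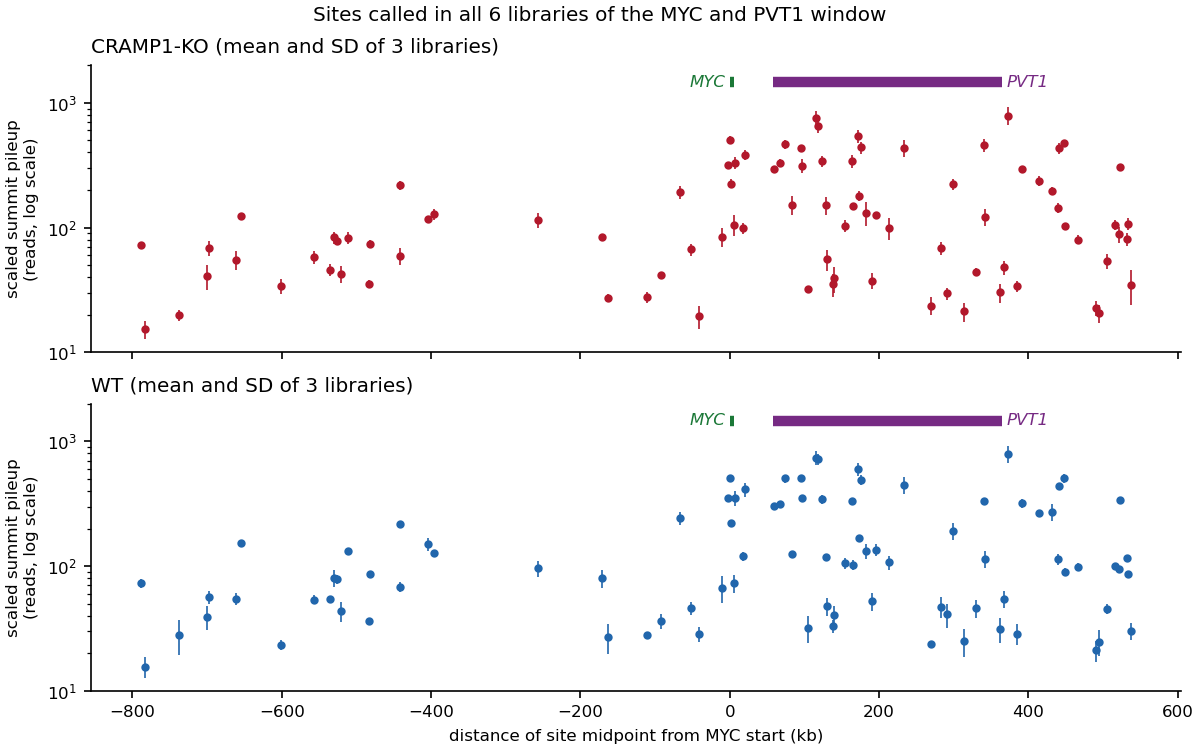
Scaled summit pileup (reads, log scale) of the 90 sites called in all 6 libraries, against the distance of the site midpoint from the start of MYC (kb), in CRAMP1-KO (top) and WT (bottom). Points are means and bars SDs of 3 libraries, and the green and purple bars mark MYC and PVT1; the outline of high sites over PVT1 and lower, sparser sites in the desert is seen in both genotypes.

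The main site of the MYC promoter showed no difference in height between genotypes beyond the error of the libraries. This site, at 128747262 to 128748788, had its summit at 128748370 in every library, 55 bp past the start of MYC. The raw summit pileup was 434, 448 and 600 in CRAMP1-KO and 642, 603 and 374 in WT, in each genotype highest in the library with the longest list. Scaled, it was 526, 534 and 462 in CRAMP1-KO and 489, 512 and 521 in WT. The lowest and the highest library were both CRAMP1-KO, so the genotypes overlapped. The means were 507 ± 39.5 in CRAMP1-KO and 507 ± 16.7 in WT (SD, n = 3), a log2 change of -0.00 with a 95% interval of -0.24 to 0.23 (limma, adjusted p = 0.986). Deposited widths were close, with 1490, 1499 and 1491 bp in CRAMP1-KO and 1504, 1495 and 1463 bp in WT. Limma used widths centred on each library's median, and the site did not pass (limma adjusted p = 0.603). The centred changes at the 3 sites of the promoter zone were all below 0, from -0.20 to -0.11 on the log2 scale.

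Fold enrichment, which the authors give as pileup over the library's own local background, placed this promoter much lower than its pileup did. It was 6.26, 6.92 and 5.75 in CRAMP1-KO and 6.92, 6.87 and 7.11 in WT, with overlapping libraries. By pileup the site stood above 99.0% to 99.6% of the peaks of each list, and by fold enrichment above 46.7% to 68.5%. The local background at the promoter sites, as a median, was 21.4, 21.1 and 25.3 times the lowest background of the library in CRAMP1-KO and 17.9, 22.5 and 20.3 times in WT. Over all peaks the median ratio was at most 1.60 in CRAMP1-KO and 1.71 in WT.

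A smaller site lay on each side of the MYC promoter. The upstream site, at 128746267 to 128746588, had scaled pileups of 303, 329 and 314 in CRAMP1-KO and 371, 336 and 354 in WT. Every CRAMP1-KO library was below every WT library there, and fold enrichment was apart in the same direction, at 4.11 ± 0.336 in CRAMP1-KO and 5.02 ± 0.374 in WT (SD, n = 3). The pileup did not pass the test, with a log2 change of -0.17 (SE 0.10, limma adjusted p = 0.237). Of all shared sites, 23.7% had scaled pileups apart in that direction. The downstream site, at 128749602 to 128751271 with its summit 1.77 kb past the start of MYC, had 219, 211 and 245 in CRAMP1-KO and 231, 228 and 206 in WT, which overlapped (log2 change 0.02, SE 0.10, limma adjusted p = 0.892). As a median over the 3 sites of the zone, centred log2 pileup was lower in every CRAMP1-KO library. Deviations from the site means were -0.02, -0.02 and -0.09 in CRAMP1-KO and 0.05, 0.02 and 0.04 in WT. The exact permutation p was 0.1, the smallest possible. Such a median can come from a different site in each library, and the median of the log2 changes of the 3 sites was -0.00. The share of comparable groups of sites elsewhere that separate in this way is not given. Other zones with at least 3 shared sites overlapped.

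The PVT1 promoter held a single broad site, at 128806040 to 128808168. Its scaled pileup was 315, 284 and 288 in CRAMP1-KO and 305, 301 and 309 in WT. The genotypes overlapped, with a log2 change of -0.05 and a 95% interval of -0.25 to 0.15 (limma, adjusted p = 0.768). Its fold enrichment was 9.88, 9.72 and 9.50 in CRAMP1-KO and 10.7, 10.8 and 11.3 in WT, so every CRAMP1-KO library was lower by that ratio. The width was 1995, 2005 and 2129 bp in CRAMP1-KO and 1595, 2069 and 1348 bp in WT, and in WT replicate 3 the site was split into 2 peaks (limma adjusted p = 0.579). Peaks at the starts of 3 relatives gave the same picture of presence. MYCN and MYCL, paralogues of MYC, and MAX, its binding partner, each had 1 site called in all 6 libraries. Their log2 changes were 0.21 (SE 0.11), -0.19 (SE 0.10) and -0.26 (SE 0.13), with limma adjusted p of 0.131, 0.177 and 0.112.

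**Figure D2:**
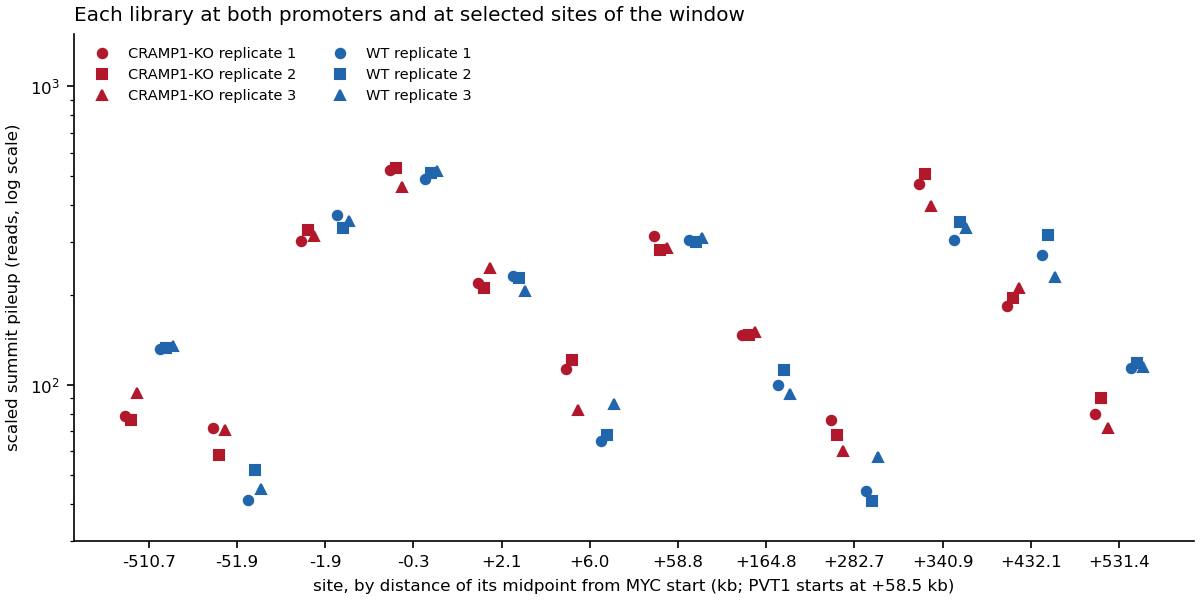
Scaled summit pileup (reads, log scale) of each CRAMP1-KO library (red, left of each pair) and each WT library (blue, right) at the 4 promoter sites and the 8 other sites with the lowest adjusted p, named by the distance of their midpoint from the start of MYC (kb). The main MYC promoter site (-0.3) and the PVT1 promoter site (+58.8) overlap between genotypes, and the site at -510.7 is lower in every CRAMP1-KO library.

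Away from the promoters, single sites differed in both directions. Of the 90 shared sites, 18 had a different summit pileup (limma over all 92505 shared sites, Benjamini-Hochberg adjusted p under 0.05), 9 higher and 9 lower in CRAMP1-KO. Over all shared sites 24.9% were called, 9.36% higher and 15.5% lower, so the 20% called here was no larger a share than in the genome at large. The median log2 change was -0.02 over the 90 sites and -0.07 over all shared sites. Scaled pileups of the genotypes did not overlap at 9 of the 90 sites upwards and at 14 downwards, beside 14.4% and 23.7% of all shared sites. The number of calls varied with the scaling. With pileups scaled by the lowest background of the library, 4 sites were higher and 2 lower, where 9.45% of all shared sites were called. With pileups divided by the local background and each library centred on its median, 1 was higher and 1 lower, where 6.99% of all shared sites were called. Divided by the local background and not centred, 0 were called in limma (13 at an unadjusted p under 0.05), where 1.34% of all shared sites were called. That ratio is the deposited fold enrichment itself and not a separate measure. Without WT replicate 2 there were 10 calls, and 9 when limma was run without a trend of the variance on the mean. The share of all shared sites called under these last settings is not given, so these counts are not compared with the genome.

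**Figure D3:**
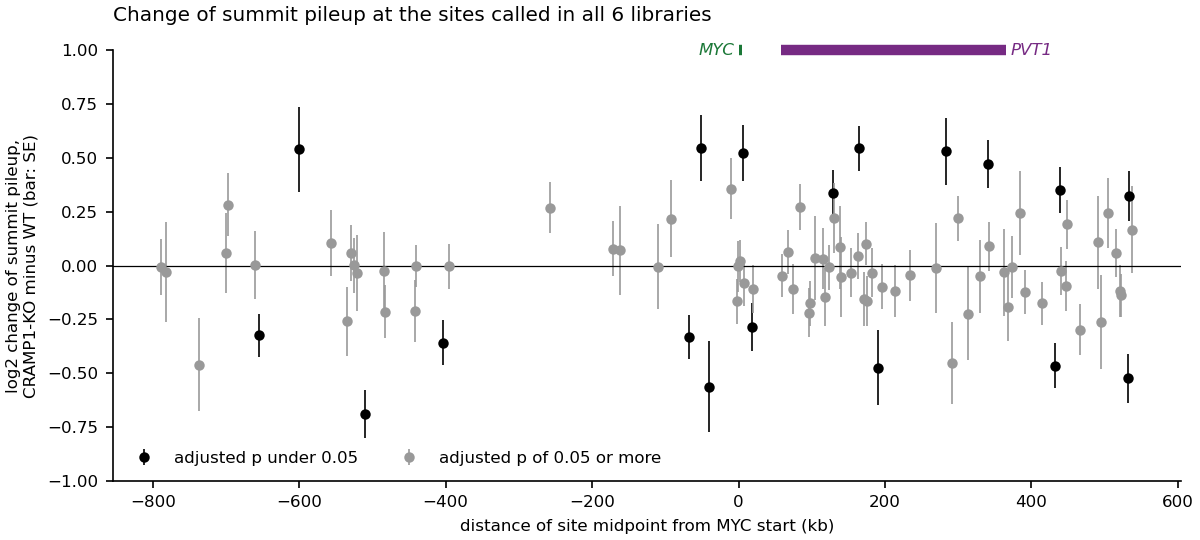
Log2 change of summit pileup, CRAMP1-KO minus WT, with its SE (limma), at the 90 shared sites against the distance of the site midpoint from the start of MYC (kb). The 18 sites with an adjusted p under 0.05 (black) lie on both sides of 0 all along the interval, and changes run from -0.69 to 0.55.

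In the upstream desert 5 shared sites were lower and 2 higher in CRAMP1-KO, out of 29. The largest change of the interval was at 128236992 to 128238150, 511 kb upstream of MYC. Its scaled pileup was 78.7, 76.2 and 93.9 in CRAMP1-KO and 132, 132 and 135 in WT. The genotypes were apart, with a log2 change of -0.69 (SE 0.11, limma adjusted p = 3.23e-06). Fold enrichment was apart in the same direction, at 7.65, 8.38 and 11.0 in CRAMP1-KO and 12.1, 13.5 and 13.6 in WT. In limma on that fold enrichment, which is the pileup divided by the local background, the log2 change was -0.55 (limma adjusted p = 0.0825). With that ratio centred it was -0.53 (limma adjusted p = 0.00755). Its width was 633, 770 and 951 bp in CRAMP1-KO and 636, 999 and 672 bp in WT, which overlapped.

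The site of the desert with the highest fold enrichment was lower too. At 128092802 to 128093532, 655 kb upstream of MYC, scaled pileups were 131, 118 and 121 in CRAMP1-KO and 148, 156 and 157 in WT (log2 change -0.32, SE 0.10, limma adjusted p = 0.0138). The site at 128344098 to 128344615, 404 kb upstream, had 114, 120 and 116 in CRAMP1-KO and 168, 132 and 152 in WT (log2 change -0.36, SE 0.10, limma adjusted p = 0.00824). Both were apart between genotypes. Without WT replicate 2 the first had a limma adjusted p of 0.0529 (log2 change -0.32), and without WT replicate 1 the second had 0.0763 (log2 change -0.27). A strong site 7.56 kb farther on, at 128352171 to 128352692, showed no such shift, with 130, 139 and 113 in CRAMP1-KO and 120, 127 and 135 in WT (log2 change -0.00, 95% interval -0.21 to 0.21, limma adjusted p = 0.985). It marks the edge of the 138-kb stretch without a shared site.

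Closer to MYC, called sites of the desert went both ways. The site at 128696040 to 128696793 was higher, with scaled pileups of 71.4, 58.4 and 70.8 in CRAMP1-KO and 41.1, 51.8 and 44.6 in WT (log2 change 0.55, SE 0.15, limma adjusted p = 0.00636). The next shared site towards MYC, at 128707161 to 128707689, was lower, with 18.2, 23.8 and 16.2 in CRAMP1-KO and 24.4, 28.9 and 32.1 in WT (log2 change -0.56, SE 0.21, limma adjusted p = 0.0424). At 128680312 to 128681777 the pileup was higher than at either, at 185, 219 and 175 in CRAMP1-KO and 210, 252 and 268 in WT (log2 change -0.33, SE 0.10, limma adjusted p = 0.0125), although CRAMP1-KO replicate 2 overlapped WT replicate 1. The remaining called site of the desert, at 128147330 to 128148019, was a weak site with 38.7, 34.5 and 29.2 in CRAMP1-KO and 25.9, 22.1 and 22.3 in WT (log2 change 0.54, SE 0.20, limma adjusted p = 0.0379). Of these 4 sites, only the one at 128696040 kept its call whichever library was left out. The site at 128707161 lost it without CRAMP1-KO replicate 1 or 3 or WT replicate 2 or 3 (log2 change -0.55 to -0.44, limma adjusted p 0.104 to 0.170). The site at 128680312 lost it without the same libraries (-0.31 to -0.26, limma adjusted p 0.0601 to 0.0867). The site at 128147330 lost it without CRAMP1-KO replicate 1 or 2 or WT replicate 2 or 3 (0.45 to 0.52, limma adjusted p 0.0901 to 0.153). With pileups divided by the local background none of the 4 was called (limma adjusted p 0.0752 to 0.559). With that ratio centred, only the site at 128147330 was called (0.56, limma adjusted p = 0.0224). Those at 128696040, 128707161 and 128680312 had 0.53, -0.42 and -0.125 (limma adjusted p = 0.0552, 0.183 and 0.562).

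Between MYC and PVT1, 4 of 13 sites were shared, and 2 of these were called, in opposite directions. The site at 128754032 to 128754599, just past the end of MYC, had the lowest median fold enrichment of the shared sites of the interval, 1.81. Its scaled pileup was 113, 122 and 82.3 in CRAMP1-KO and 64.7, 67.9 and 86.4 in WT. CRAMP1-KO replicate 3 overlapped WT replicate 3, and the log2 change was 0.52 (SE 0.13, limma adjusted p = 0.00188). The call was kept whichever library was left out. It was lost with pileups divided by the local background (0.30, limma adjusted p = 0.278) and with that ratio centred (0.31, limma adjusted p = 0.2465). Without a trend of the variance on the mean it was lost too (limma adjusted p = 0.0519). The site's fold enrichment exceeded that of at most 2.24% of the peaks of any list. A site 659 bp farther on, at 128755259 to 128755903, was far higher and overlapped between genotypes, with 361, 347 and 287 in CRAMP1-KO and 304, 350 and 399 in WT (limma adjusted p = 0.626). The other called site, at 128766198 to 128766881, had 108, 88.2 and 99.3 in CRAMP1-KO and 128, 123 and 109 in WT (log2 change -0.29, SE 0.11, limma adjusted p = 0.0490). That call was lost without CRAMP1-KO replicate 2 or 3 or WT replicate 1 or 2 (log2 change -0.29 to -0.22, limma adjusted p 0.0799 to 0.196).

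In the PVT1 body, the largest group with 33 shared sites of 88, 4 sites were higher and 1 lower in CRAMP1-KO. The firmest rise was at 128912826 to 128913312, with scaled pileups of 147, 147 and 151 in CRAMP1-KO and 99.8, 112 and 93.4 in WT (log2 change 0.54, SE 0.11, limma adjusted p = 7.25e-05). Its fold enrichment was apart as well, at 3.43, 3.83 and 4.43 in CRAMP1-KO and 3.24, 3.30 and 2.90 in WT. In limma on that fold enrichment, which is the pileup divided by the local background, the call was lost (log2 change 0.31, limma adjusted p = 0.248). With that ratio centred it was lost too (0.32, limma adjusted p = 0.198). The site at 129030714 to 129031316 had 76.3, 67.9 and 60.0 in CRAMP1-KO and 44.2, 40.8 and 57.1 in WT (log2 change 0.53, SE 0.16, limma adjusted p = 0.00816). The site at 128876026 to 128877499 had 178, 141 and 132 in CRAMP1-KO and 111, 121 and 123 in WT (log2 change 0.34, SE 0.11, limma adjusted p = 0.0151). At all 3 sites every CRAMP1-KO library was above every WT library. Fold enrichment was higher in every CRAMP1-KO library at 129030714 and 128876026 too. In limma on that fold enrichment neither of these was called (log2 change 0.40 and 0.11, limma adjusted p = 0.186 and 0.620). The lower site, at 128938274 to 128939753, had 43.6, 35.7 and 33.1 in CRAMP1-KO and 44.2, 50.9 and 61.3 in WT, apart by a small margin (log2 change -0.47, SE 0.17, limma adjusted p = 0.0366). The call at 128876026 rested on CRAMP1-KO replicate 1, without which the log2 change was 0.22 (limma adjusted p = 0.179). That at 129030714 was lost without CRAMP1-KO replicate 1 or WT replicate 2 (0.45 and 0.43, limma adjusted p = 0.0597 and 0.0712). The lower site lost its call without CRAMP1-KO replicate 2 or 3 or WT replicate 2 or 3 (-0.49 to -0.36, limma adjusted p 0.0776 to 0.190).

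At a strong site near the 3′ end of PVT1, summit pileup and local background were both higher in CRAMP1-KO. Both values were solved from the same peak, so a change of the DNA around it was not measured apart. At 129088865 to 129089665 the scaled pileup was 472, 508 and 399 in CRAMP1-KO and 305, 350 and 334 in WT (log2 change 0.47, SE 0.11, limma adjusted p = 0.000901). Its fold enrichment was 13.3, 15.4 and 13.2 in CRAMP1-KO and 13.0, 13.8 and 13.4 in WT, which overlapped. The local background at that summit rose by a log2 change of 0.43 (limma adjusted p = 0.000874), and by 0.44 (limma adjusted p = 0.000796) at a smaller site 367 bp farther on. These neighbouring summits share nearly the same background, so they are not separate observations.

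Local background was higher at most shared sites of the PVT1 body. Of the 33 shared sites of its body, 28 had a background change above 0, with a median of 0.10 on the log2 scale, and 4 passed the test, all higher. The 3 sites of the MYC promoter zone were also above 0, with a median of 0.15, and 43.0% of all shared sites were. Over the 90 shared sites the same 4 were called and 0 were lower (limma; 11 at an unadjusted p under 0.05), against 8.71% higher and 8.41% lower over all shared sites. In the desert 14 of 29 changes were above 0, with a median of -0.01. Sites close together share their background, so these counts describe positions and not independent measurements. The part of the background in the pileup changes of the PVT1 body was not tested.

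**Figure D4:**
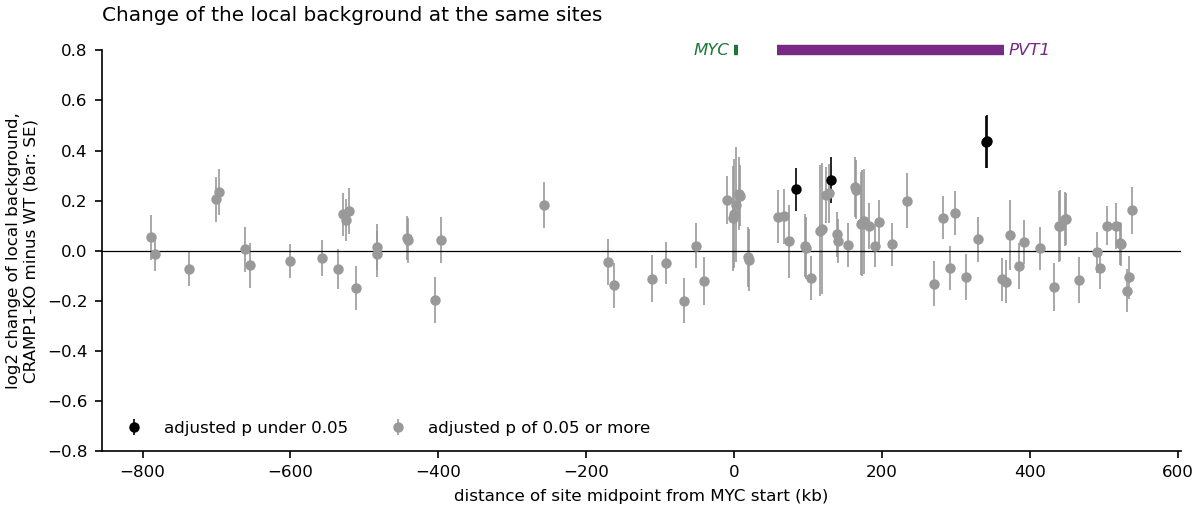
Log2 change of the local background, CRAMP1-KO minus WT, with its SE (limma), at the same 90 sites against distance from the start of MYC (kb). Of the 33 sites of the PVT1 body 28 lie above 0, and the 4 black points (adjusted p under 0.05, of which the 2 at the far right nearly coincide) are all in that gene.

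The site of the PVT1 body with the highest fold enrichment did not pass the test. It lay at 128981512 to 128982406 and had scaled pileups of 480, 462 and 356 in CRAMP1-KO and 386, 430 and 523 in WT, which overlapped (log2 change -0.05, 95% interval -0.28 to 0.19, limma adjusted p = 0.811). At 128843654 to 128844478, another strong site, they were 466, 429 and 415 in CRAMP1-KO and 505, 524 and 495 in WT. Every CRAMP1-KO library was lower there, by a log2 change of -0.22 whose 95% interval of -0.45 to 0.01 reached 0 (limma adjusted p = 0.148).

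Downstream of PVT1, 20 of 37 sites were shared, and 2 pairs of neighbours were called, each with a lower and a higher member. At 129279234 to 129280183 scaled pileups were 79.9, 90.5 and 71.6 in CRAMP1-KO and 114, 118 and 114 in WT (log2 change -0.52, SE 0.12, limma adjusted p = 0.000487). 1.39 kb farther on, at 129281571 to 129282033, they were 120, 97.7 and 105 in CRAMP1-KO and 80.0, 88.3 and 89.2 in WT (log2 change 0.32, SE 0.12, limma adjusted p = 0.0325). The genotypes were apart at both, in opposite directions, and fold enrichment was apart in the same directions as the pileup. Neither was called in limma on that fold enrichment (log2 change -0.37 and 0.42, limma adjusted p = 0.139 and 0.143). The higher site kept its call without CRAMP1-KO replicate 2 and lost it without any other library (log2 change 0.25 to 0.34, limma adjusted p 0.0516 to 0.163).

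The other pair also had a lower and a higher member. At 129179676 to 129181247 scaled pileups were 184, 195 and 211 in CRAMP1-KO and 273, 318 and 230 in WT (log2 change -0.46, SE 0.10, limma adjusted p = 0.000527). At 129187717 to 129188401, 6.47 kb away, they were 130, 149 and 155 in CRAMP1-KO and 106, 127 and 107 in WT (log2 change 0.35, SE 0.11, limma adjusted p = 0.0110). Fold enrichment was apart at the first and overlapped at the second, with 2.68, 3.16 and 3.35 in CRAMP1-KO and 2.54, 2.70 and 2.43 in WT. In limma on that fold enrichment the first was not called (log2 change -0.32, limma adjusted p = 0.169). The second lost its call without CRAMP1-KO replicate 3 or WT replicate 3, at a log2 change of 0.30 each (limma adjusted p = 0.0644 and 0.0643). The site with the highest fold enrichment of the interval, at 129270801 to 129271296, had 17.1, 19.2 and 19.1 in CRAMP1-KO and 20.8, 20.6 and 20.4 in WT by that ratio. Its scaled pileup was 316, 299 and 309 in CRAMP1-KO and 345, 334 and 339 in WT, lower in every CRAMP1-KO library but short of the threshold (log2 change -0.14, SE 0.10, limma adjusted p = 0.327).

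Peak width changed at none of the 90 shared sites in limma, with 15 at an unadjusted p under 0.05, where 0.0422% of all shared sites were called. As the deposited widths stand, 18 sites were wider in every CRAMP1-KO library and 7 narrower, beside 19.2% and 3.03% of all shared sites. Whole lists also differ in width, with a median of 430 to 463 bp in CRAMP1-KO and 351 to 425 bp in WT. Once widths were centred on each library's median, as in limma, 34 changes were above 0 and 56 below. The median log2 change was -0.06, and -0.04 over all shared sites. Median centred widths were lower in every CRAMP1-KO library in the PVT1 body (log2 difference -0.13) and downstream of PVT1 (-0.12). The exact permutation p was 0.1 for each, the smallest possible. How often comparable groups of sites elsewhere separate in this way is not given, so these zones are not compared with the genome. Median centred widths overlapped in the desert, at the MYC promoter, between the genes and over the whole interval.

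Few sites were called in 1 genotype alone. A single site had a peak in all 3 CRAMP1-KO libraries and in no WT library (0.342% of 292, against 0.767% of all sites). It lay in the PVT1 body at 129037889 to 129038383, with fold enrichment of 3.87, 2.78 and 2.35, and the nearest WT peak lay 910, 479 and 1200 bp away in WT replicates 1 to 3. The reverse held at 6 sites (2.05%, against 1.14% of all sites), 4 in the desert and 2 in the PVT1 body, with fold enrichment from 2.49 to 5.33. With only peaks of −log10 q of at least 5 or 10 the counts were 0 and 3. A stricter limit also removes weak CRAMP1-KO peaks. These 3 therefore need not be among the 6, nor be the same at both limits. Without WT replicate 1 there were 3 CRAMP1-KO sites, and 2 without CRAMP1-KO replicate 3, while there were 13 WT sites without WT replicate 2 and 18 without WT replicate 3. Leaving a library out loosens the rule, as only the remaining libraries then need to have or lack a peak. A larger count can come from that alone, and shares over all sites are not given for these runs.

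Of these WT sites, the firmest lay at 128683142 to 128683504 and 128626961 to 128627202. The first had pileups of 94, 84 and 59 in WT replicates 1 to 3 and lay 1.36 kb from the called lower site at 128680312, where every CRAMP1-KO library had a peak with a fold enrichment of 9.01 to 12.0. The second had pileups of 53, 35 and 25 in WT replicates 1 to 3, and the nearest CRAMP1-KO peak lay 2872 to 9676 bp away. In the PVT1 body, the site at 128901404 to 128901647 had −log10 q of 16.1, 5.77 and 6.71 in WT replicates 1 to 3, with fold enrichment of 3.35, 2.49 and 3.03. A shared site begins 590 bp after its end.

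The interval as a whole took a smaller mean share of the list in CRAMP1-KO, a difference within the error. It held 140, 138 and 148 peaks in CRAMP1-KO and 249, 167 and 138 in WT. Per 10000 peaks of a list this was 10.5, 9.91 and 9.37 in CRAMP1-KO and 12.5, 11.0 and 10.4 in WT, or 9.91 ± 0.550 and 11.3 ± 1.09 (SD, n = 3). CRAMP1-KO replicate 1 overlapped WT replicate 3, and an exact two-sided permutation test gave p = 0.2, where 0.1 is the smallest possible. Among the 2059 tiles the log2 change was -0.19 (SE 0.08, limma adjusted p = 0.132), where 28.2% of tiles were called and 5.0% were called lower. With a trend of the variance on the mean the same change passed, at a limma adjusted p of 0.0397. Covered bases gave 947 ± 42.5 per 1000000 in CRAMP1-KO and 1030 ± 79.2 per 1000000 in WT (SD, n = 3; limma adjusted p = 0.195, where 35.2% of tiles were called and 6.36% were called lower).

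By zone, only the PVT1 body had shares that did not overlap. They were 3.36, 3.45 and 3.54 peaks per 10000 in CRAMP1-KO and 4.22, 3.96 and 3.62 in WT (exact permutation p = 0.1, the smallest possible), and 13.6% of whole tiles were apart in that direction. Covered bases were apart too, at 394 ± 13.8 per 1000000 in CRAMP1-KO and 435 ± 20.7 per 1000000 in WT (SD, n = 3; exact permutation p = 0.1), as in 14.3% of whole tiles. The desert had 4.49, 4.02 and 3.61 in CRAMP1-KO and 6.08, 4.35 and 4.07 in WT, with WT replicate 1 far above the rest. That library alone supplied 57 of the 99 sites called in a single library. Without it the log2 change in the share of the whole interval was -0.11 (limma adjusted p = 0.255). With all lists shortened to the length of the shortest it was -0.07 (limma adjusted p = 0.556).

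**Figure D5:**
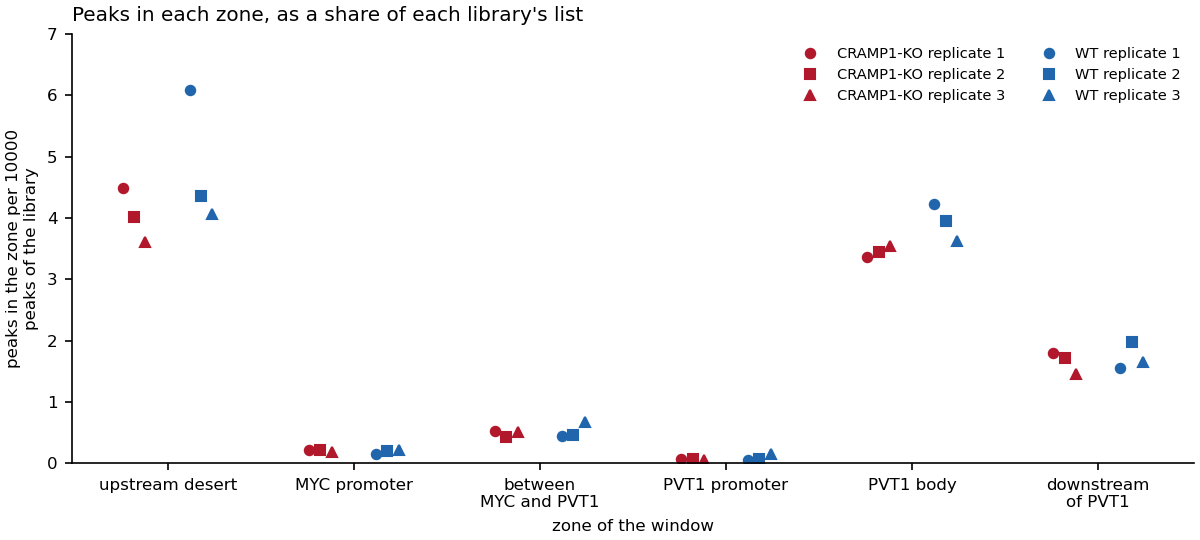
Peaks in each zone of the interval per 10000 peaks of the library's list, for each CRAMP1-KO library (red, left) and each WT library (blue, right). In the PVT1 body the CRAMP1-KO libraries (3.36 to 3.54) lie below the WT libraries (3.62 to 4.22), and in the desert WT replicate 1 stands above all others.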

How the data were processed

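ATAC-seq peak lists of 3 CRAMP1-KO and 3 WT libraries of U2OS cells were analysed, 1 list per library. The submitters' processing notes name the hg19 build, MACS3, BWA 0.7.17-r1188, cutadapt 3.4 and bcl2fastq 2.20.0. MACS3 settings and the handling of duplicates are not given in the sources used. Each deposited peak carries a score, a fold enrichment (ratio of pileup to local background), and −log10 p and −log10 q values. All are the authors' own values, and fold enrichment was used here to describe and rank peaks and to solve pileups.

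The summit pileup n and local background b were solved from fold = (n + 1)/(b + 1) and the Poisson −log10 p. In 100% of peaks n was whole within 0.01. Peaks of the 6 libraries were joined at an overlap of 1 bp, the highest peak of a library stood for it at a site, and its widths were summed. Sites were named by zone: those at promoters, the 5 with the highest fold enrichment, those called in 1 genotype only, and up to 5 called by limma. The highest summits by pileup and the called site at 128680312 were added after their values were seen.

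Limma 3.58.1 in R 4.3.3 was fitted to log2 pileup, width and background of all 92505 shared sites, each library centred on its median, and to log2 shares with a pseudocount of 0.5 over 2059 tiles of 1.4 Mb with a mean of at least 5 peaks, calling Benjamini-Hochberg adjusted p under 0.05. Whether eBayes used a trend of the variance on the mean was settled after both forms had been run on these data. The trend is used for sites, because without it the fit missed the changes in simulated pileups, and not for tiles. Those pileups were drawn with a variance that depends on the mean, so the simulation cannot show which form suits these data. The number of called sites and the share of peaks are given both ways. Single values were compared by two-sided exact permutation over 20 label assignments. Python 3.11.15, numpy 2.4.6, pandas 2.3.3, scipy 1.17.1 and matplotlib 3.10.9 were used. Alternatives tried were lists of equal length, stricter q limits, another joining rule, other scalings, a replicate block and each library left out.

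Total reads are unknown, so no counting interval is given and the number of libraries limits precision. The limits of both genes were taken as given for hg19 and not checked against an annotation of that build. The interval, its zones and the named relatives of MYC were chosen with earlier results of these data known. No sequence is printed for this locus.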

Additional observations from a re-analysis of the deposited data

How the results depend on the processing

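Without a trend of the variance on the mean, an alternative chosen after seeing the data, 9 shared sites had a called pileup difference, all among the 18, and 1 had a called width difference. With the trend the share of peaks in the interval passed the threshold (log2 change -0.19, limma adjusted p = 0.0397). Scaling pileups by the lowest background of the library left 6 calls, dividing them by the local background with each library centred on its median, an alternative chosen after seeing the data, left 2, and the same division without centring left 0. The width of the highest peak alone gave 1 call. With only peaks of −log10 q of at least 5 or 10 there were 0 sites called only in CRAMP1-KO and 3 called only in WT. These 3 need not be the same at both limits. Leaving out each library in turn gave 10 to 17 pileup calls (10 without WT replicate 2), 1 to 3 CRAMP1-KO sites and 6 to 18 WT sites. Leaving a library out loosens the rule for sites of 1 genotype, and shares over all sites are not given for these runs.

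The change at the main MYC promoter site stayed near 0 but changed sign, at 0.0125 with peaks of −log10 q of at least 5, 0.0266 at the limit of 10, 0.0108 in lists of equal length, 0.00541 with sites joined at a larger overlap and 0.0158 with the lowest background, and from -0.0488 to 0.0636 with a library left out (limma adjusted p of 0.778 to 0.999). The downstream promoter site at 128749602 gave -0.16 with the local background (limma adjusted p = 0.481), -0.14 with that ratio centred (limma adjusted p = 0.578) and -0.0413 to 0.0615 with a library left out. The cause of these shifts was not tested. Of 343 values computed for single sites under the alternatives, both promoters included, 238 kept direction and side of the threshold, 93 kept direction but lost the call, and 12 changed sign, all at the 2 MYC promoter sites just named.

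Replicate numbers did not pair the libraries: same-numbered libraries had correlations of 0.06, 0.06 and -0.09 in their deviations of log2 pileup. With a replicate block, 19 shared sites had a called pileup difference and the share of peaks had a limma adjusted p of 0.105. The share of all shared sites called with the block is not given.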
